A study of Mus musculus with 6 samples.

Results

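The Wnt ligands, their Frizzled, LRP and LGR receptors and their secreted regulators were measured in liver tissue of 6 mice, 3 ErbB4-/- mice and 3 wild-type controls, with 1 whole-transcript array per mouse. The members were all genes of the platform annotation with a symbol of the form Wnt, Fzd, Sfrp (1 to 5), Dkk (1 to 4), Rspo (1 to 4), Lgr (4 to 6) or Lrp (5 and 6), followed by the family number. They came to 46 of 22180 genes, with 19 Wnts, 10 Frizzleds, 2 LRP co-receptors, 3 LGR receptors, 4 R-spondins, 4 SFRPs and 4 DKKs. The ErbB4-/- mice were full ErbB4 mutants on a C57BL/6J background whose embryonic death is prevented by a transgene, HER4heart, that supplies ErbB4 in the heart. The controls were C57BL/6J wild-type mice. All 6 mice had received DEN once, on postnatal day 14. DEN usually stands for diethylnitrosamine, which causes liver tumours in mice. The treatment protocol puts dissection at 32 weeks for all, whereas the treatment characteristic gives 35, 36 and 37 weeks for ErbB4-/- replicates 1 to 3 and 32, 33 and 34 weeks for control replicates 1 to 3. The weeks of the characteristic go up by 1 from each sample to the next in the order of the list, and whether they are true times of dissection is not known here. By the characteristic every ErbB4-/- mouse was older than every control, and age and genotype are then nearly confounded.

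Wnts are secreted lipid-bearing proteins that bind a Frizzled together with LRP5 or LRP6, which protects beta-catenin from degradation and lets it act with TCF and LEF factors in the nucleus. R-spondins bind LGR receptors and keep the ubiquitin ligases ZNRF3 and RNF43 from removing Frizzleds, while SFRPs capture Wnts and most DKKs block LRP5 and LRP6. In mouse liver, endothelial cells of the central vein and the sinusoids supply Wnts and R-spondin 3, and hepatocytes near the central vein respond with genes such as Glul, Cyp2e1 and Axin2.

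No member differed between ErbB4-/- and control liver after adjustment over all genes. The Frizzled gene Fzd8 stood farthest from 0, at 6.75 ± 0.05 in ErbB4-/- and 6.01 ± 0.29 in control liver (log2 level, SD, n = 3 each), a log2 difference of 0.73. The R-spondin gene Rspo3 lay at the other end with a difference of -0.45, which came from 2 of the 3 ErbB4-/- arrays. Genes that respond to Wnt signalling in hepatocytes, among them Glul and Axin2, did not pass either, and Glul differed by -0.01.

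All values are log2 levels of 1 probe set per gene. A level can be compared between arrays but not between probe sets, so no gene's level is set against another's, and the median over all rows of the table (4.83) is used only to separate probe sets of higher and lower signal. Array medians lay between 4.83 and 4.86 and correlations between arrays between 0.975 and 0.986. ErbB4-/- replicate 3 stood apart on the first principal component, with a weight of 0.77 where the other 5 arrays lay between -0.50 and 0.13. Control replicate 1 stood apart in the mean over 10 genes of male-type liver metabolism, at 6.90 against 9.94 to 10.26 on the other arrays. It also stood apart in the mean over 8 female-type genes, at 7.89 against 6.01 to 6.48. Not every gene did so. On control replicate 1 the female-type genes Cyp2b9 and Cyp2b13 were highest, at 12.59 and 10.91. Cyp2a4 was higher on ErbB4-/- replicate 3 (9.54 against 9.45), and Sult2a1 was lowest on control replicate 1 (2.56). The male-type gene Ugt2b38 measured 3.29 there, within the range of the other arrays. The mean over 9 hepatocyte markers was 13.19 to 13.23 in ErbB4-/- and 13.27 to 13.36 in control liver, and all 9 lay above the median of the table. Erbb4 itself measured 4.75, 5.36 and 5.61 in ErbB4-/- liver and 5.42, 5.73 and 5.42 in control liver. The part of the gene its probe set reads is not known here, so this checks no label.

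Of the 46 members, 26 had a mean over all arrays above the median of the table, or 56.5%, against 57.5% of all genes. All 5 LRP and LGR genes were among them, as were 10 of 19 Wnts, 6 of 10 Frizzleds, Rspo1 and Rspo3 of the R-spondins, Dkk3 and Dkk4 of the DKKs and Sfrp1 of the SFRPs. Just above the median stood Wnt7a with a mean of 4.87, and just below it Rspo2 with 4.82, Rspo4 with 4.81, Dkk1 with 4.78 and Wnt8a with 4.77. No background signal was used, so a level below the median does not show that a gene is silent, nor a level above it that the gene is expressed.

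**Figure D1:**
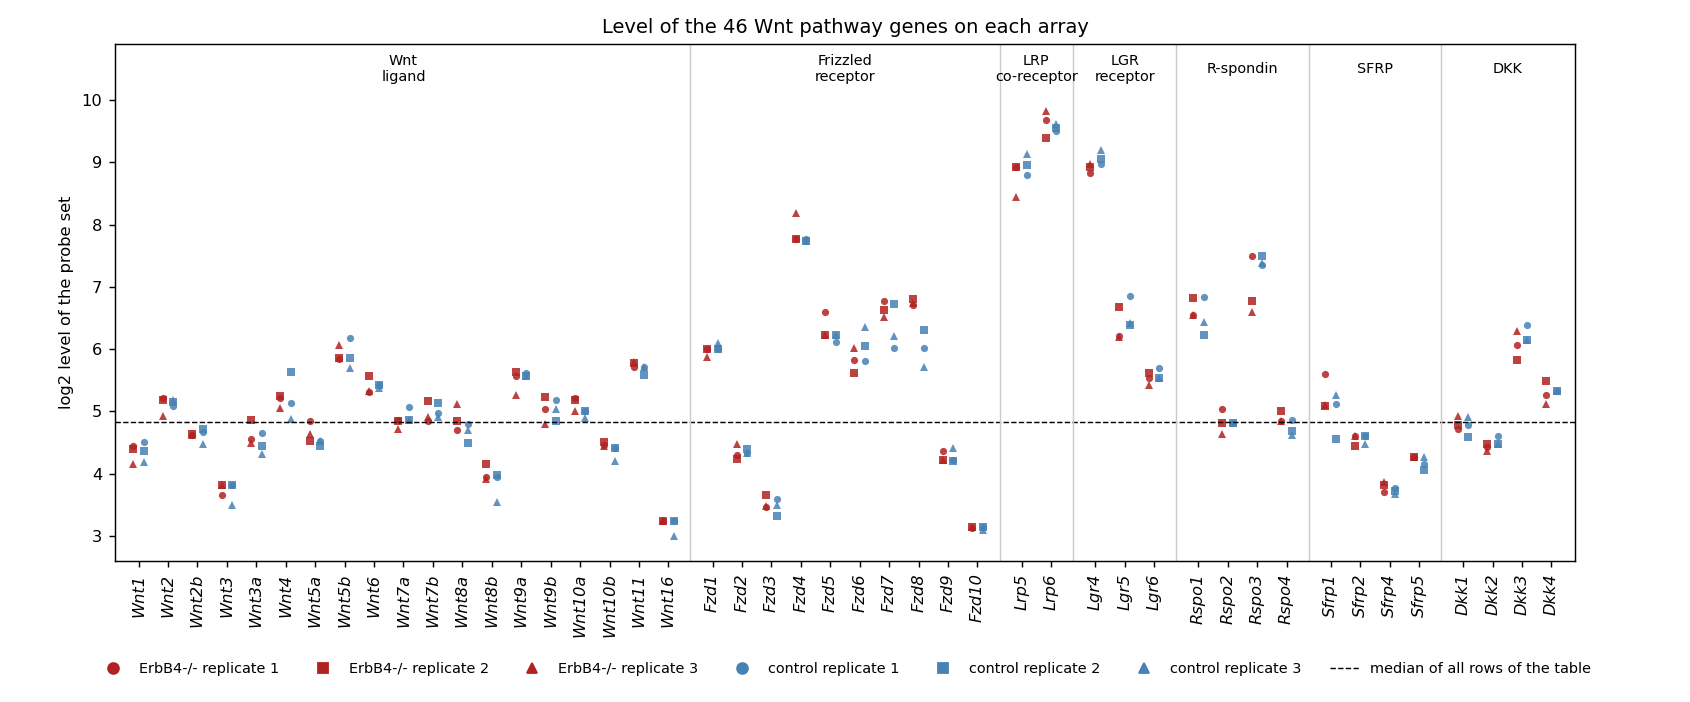
Each point is the log2 level (y axis) of 1 probe set on 1 array, for the 46 genes grouped by role (x axis), with ErbB4-/- arrays in red on the left and control arrays in blue on the right of each gene. The dashed line is the median of all rows of the table (4.83), and 26 genes have a mean above it. In Fzd8 the 3 red points lie above the 3 blue points, and in Rspo3 2 red points lie below the rest.

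Differences were tested with limma as ErbB4-/- minus control and adjusted over all 22180 genes at a threshold of 0.05. No member passed, and 0.00451% of all genes, or 1 gene, did. At an unadjusted p below 0.05 there was 1 member, Fzd8, or 2.17% against 5.72% of all genes, and 2.77% of all genes were higher and 2.94% lower in ErbB4-/- liver at that p. The 3 values of each group did not overlap in 2 members, Fzd8 and Wnt10b, or 4.35% against 8.33% of all genes, and in both the ErbB4-/- values were the higher ones, as in 4.52% of all genes, with 3.81% lower. The median difference over the members was 0.008, against 0.015 over all genes, with 25 members above and 21 below 0. The 95% interval of the difference lay within a log2 difference of 1 in either direction for 44 members and within 0.5 for 33. The 2 whose intervals reached beyond 1 were Fzd8 and Rspo3.

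Identical values recurred between arrays. In 30 of the 46 members at least 2 arrays held the same value to the last deposited digit, as they did in 57.5% of all genes. In 7 members, Dkk2, Fzd1, Fzd4, Wnt5a, Wnt7a, Wnt10a and Wnt11, the groups met only at such a shared value. With quantile normalization applied again, 7 members did not overlap, 3 of them from those 7, while the share over all genes was 14.8%. The count of members without overlap thus differed with the normalization.

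**Figure D2:**
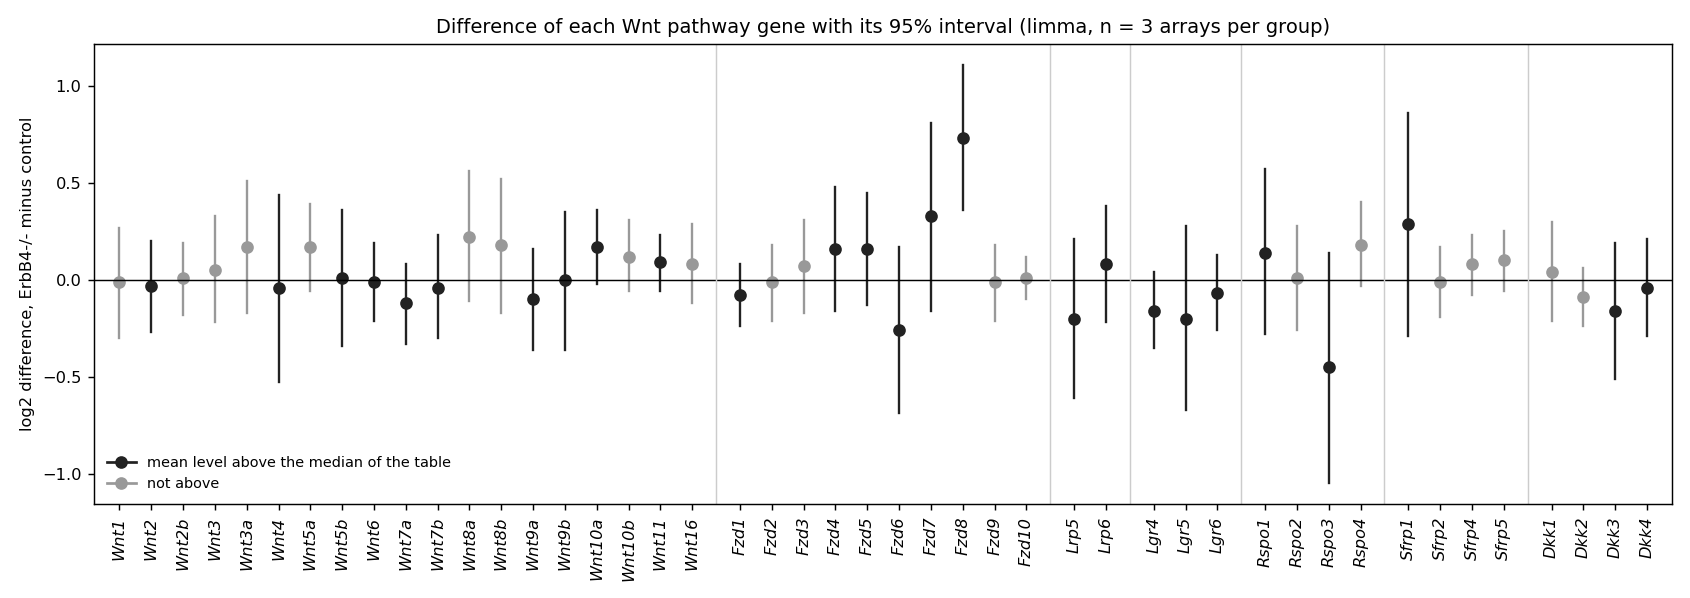
The y axis gives the log2 difference, ErbB4-/- minus control, of each of the 46 genes on the x axis, with its 95% interval from limma (n = 3 arrays per group, not adjusted for the number of genes). Black marks genes with a mean level above the median of the table and grey the others. Fzd8, at 0.73 with an interval of 0.36 to 1.11, is the 1 gene whose interval does not reach 0.

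Among the Frizzleds, the receptors that bind Wnts, Fzd8 measured 6.70, 6.80 and 6.74 in ErbB4-/- replicates 1 to 3 and 6.01, 6.31 and 5.72 in control replicates 1 to 3. Every ErbB4-/- value lay above every control value, and the ErbB4-/- arrays lay closer together than the control arrays. The difference of 0.73, or 1.66-fold, had a standard error of 0.15 and a 95% interval of 0.36 to 1.11, and it did not pass (limma, adjusted p = 0.760). It was between 0.59 and 0.88 when any 1 array was left out and 0.74 with the 2 arrays that stood apart left out together, and it passed in none of these fits.

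Fzd7, a Frizzled known from stem and progenitor cells, measured 6.77, 6.63 and 6.52 in ErbB4-/- liver and 6.01, 6.73 and 6.21 in control liver. The groups overlapped through control replicate 2, the difference was 0.33 with a standard error of 0.20 (limma, adjusted p = 0.760), and without that array it was 0.53 (limma, adjusted p = 0.791). Without control replicate 1 it was 0.18. Fzd6, known for its part in planar polarity of skin and hair, measured 5.82, 5.61 and 6.02 in ErbB4-/- and 5.81, 6.05 and 6.36 in control liver, a difference of -0.26 (SE 0.17.) Its groups overlapped widely, and with 1 array left out the difference ran from -0.39 without control replicate 1 to -0.12 without control replicate 3. With the labelled week in the model it was -0.82 (limma, adjusted p = 0.994).

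Fzd4, the receptor for norrin on endothelial cells, measured 7.76, 7.76 and 8.19 in ErbB4-/- and 7.76, 7.73 and 7.74 in control liver. ErbB4-/- replicate 3 alone departed from the other 5 arrays, which spanned 7.73 to 7.76, and without it the difference of 0.16 became 0.02. For Fzd5, the other single-array departure, ErbB4-/- liver measured 6.59, 6.22 and 6.23 and control liver 6.11, 6.23 and 6.23. Here it was ErbB4-/- replicate 1 that stood above the rest, and without it the difference of 0.16 became 0.04. Fzd1 measured 6.00, 6.00 and 5.87 in ErbB4-/- and 6.00, 6.00 and 6.10 in control liver, with 4 identical values. The other 4 Frizzleds, Fzd2, Fzd3, Fzd9 and Fzd10, were not above the median, with values of 3.09 to 4.47 and differences of -0.01 to 0.07.

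The co-receptors Lrp5 and Lrp6, which carry the signal of a bound Frizzled to the inside of the cell, showed no common direction. Lrp5 measured 8.92, 8.93 and 8.44 in ErbB4-/- and 8.79, 8.96 and 9.14 in control liver, a difference of -0.20 with an interval of -0.61 to 0.21. Its lowest value was that of ErbB4-/- replicate 3, and 2 of the 3 ErbB4-/- values lay inside the control range. Without that array the difference was -0.04, and without control replicate 1 it was -0.29. Lrp6 measured 9.68, 9.39 and 9.83 in ErbB4-/- and 9.51, 9.55 and 9.61 in control liver, a difference of 0.08. The ErbB4-/- arrays lay on both sides of the controls. A second probe set of Lrp6, with a mean of 6.35, gave a difference of -0.05, so the sign of the Lrp6 difference depends on the probe set.

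The LGR receptors bind R-spondins, and Lgr5 is in mouse liver also a Wnt target of hepatocytes at the central vein. Lgr4, the member of the family found widely in hepatocytes, measured 8.83, 8.92 and 8.98 in ErbB4-/- and 8.97, 9.05 and 9.19 in control liver. The groups overlapped by a single pair of neighbouring values, and the difference was -0.16 with a standard error of 0.08 and an interval of -0.35 to 0.04 (limma, adjusted p = 0.760). Lgr5 measured 6.21, 6.68 and 6.19 in ErbB4-/- and 6.86, 6.39 and 6.42 in control liver, a difference of -0.20 with an interval of -0.67 to 0.28. The highest of the 6 values was that of control replicate 1, and without this array the difference was -0.04. The second probe set of Lgr5, with a mean of 5.32, gave a difference of 0.04. Lgr6 measured 5.54, 5.62 and 5.43 in ErbB4-/- and 5.70, 5.54 and 5.54 in control liver, a difference of -0.07. All 3 LGR differences were below 0, as were 45.3% of those of all genes, and none passed. The sign of the Lgr5 difference depends on the probe set.

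**Figure D3:**
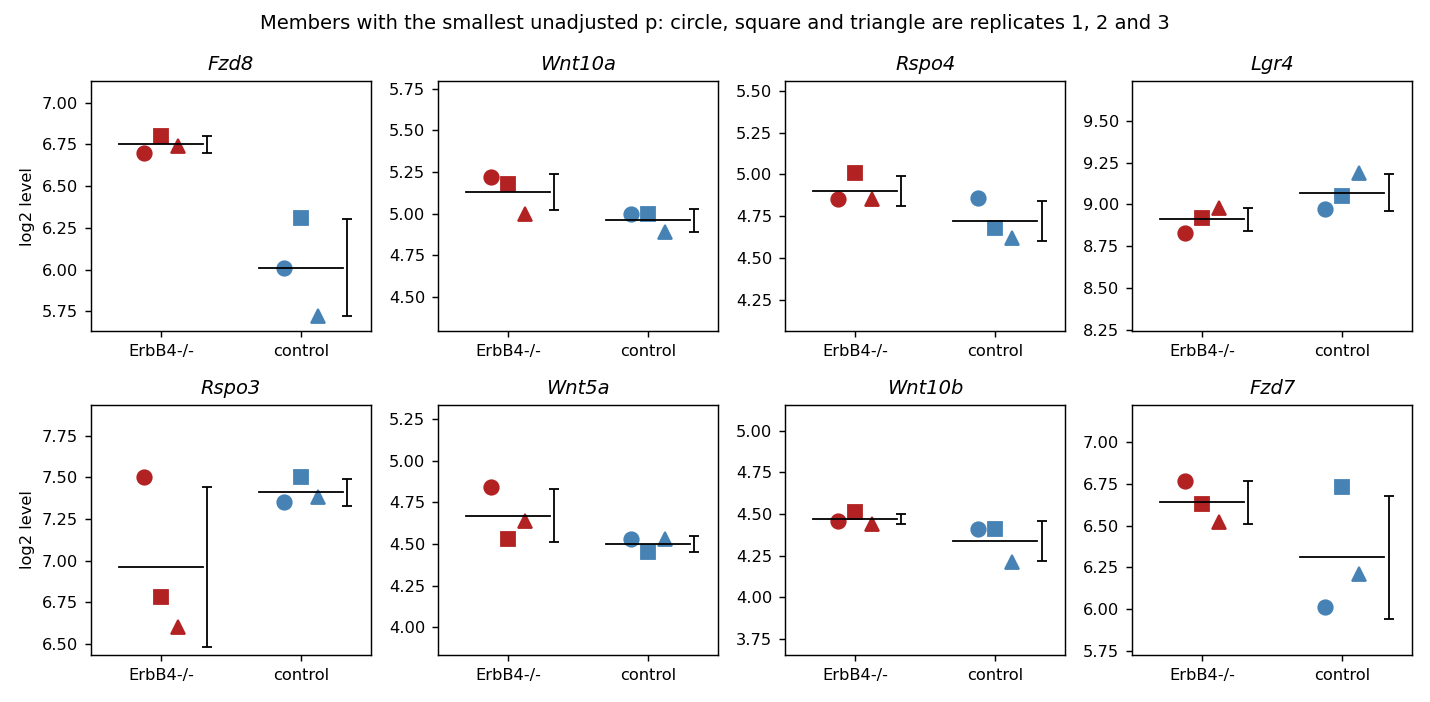
The 8 genes with the smallest unadjusted p, each with its log2 level (y axis) in ErbB4-/- liver on the left and control liver on the right; circles, squares and triangles are replicates 1, 2 and 3, horizontal lines are means and bars are SD (n = 3). All panels span the same number of log2 units. The groups are apart in Fzd8 and Wnt10b, and in Rspo3 ErbB4-/- replicate 1 lies with the controls at 7.50.

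Rspo3, the R-spondin made by central vein endothelium and by stellate cells in mouse liver, measured 7.50, 6.78 and 6.60 in ErbB4-/- and 7.35, 7.50 and 7.38 in control liver. ErbB4-/- replicates 2 and 3 lay below all controls, and ErbB4-/- replicate 1 was level with the highest control. The difference was -0.45 with a standard error of 0.24 and an interval of -1.05 to 0.14 (limma, adjusted p = 0.760). Leaving out ErbB4-/- replicate 1 gave -0.72 (limma, adjusted p = 0.524) and leaving out ErbB4-/- replicate 3 gave -0.27 (limma, adjusted p = 0.773), so the value depends on which of these arrays is kept. Adding the labelled week, which may not be the time of dissection, to the model turned the difference to 0.20.

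Rspo1, the other R-spondin above the median, measured 6.55, 6.82 and 6.55 in ErbB4-/- and 6.83, 6.23 and 6.44 in control liver, a difference of 0.14. Control replicate 1 held the highest value, and the difference was 0.31 without that array and 0.01 without control replicate 2. Rspo4, which is known for nail development, measured 4.85, 5.01 and 4.85 in ErbB4-/- and 4.86, 4.68 and 4.62 in control liver, a difference of 0.18 (SE 0.09; limma, adjusted p = 0.760). Only control replicate 1 reached into the ErbB4-/- range. Rspo2 differed by 0.01. Over the 4 R-spondins the differences thus ran from -0.45 to 0.18 with no shared sign.

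The 19 Wnt ligands had small differences between the groups. These differences lay between -0.12 and 0.22, and 11 were above and 8 below 0. None passed, and all 19 intervals lay within a log2 difference of 1. Of the 19 genes 9 were not above the median of the table. In 14, or 73.7%, at least 2 arrays held an identical value, against 57.5% of all genes. Dim probe sets may hold background only, so a small difference does not show that a Wnt gene was unchanged.

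Wnt2, a Wnt of sinusoidal and central vein endothelium in mouse liver, measured 5.22, 5.18 and 4.92 in ErbB4-/- and 5.08, 5.15 and 5.18 in control liver, a difference of -0.03 with an interval of -0.27 to 0.20. Its lowest value was that of ErbB4-/- replicate 3. Wnt9b, the other Wnt known from the central vein endothelium of mouse liver, measured 5.03, 5.23 and 4.80 in ErbB4-/- and 5.19, 4.84 and 5.03 in control liver, and both means were 5.02. Its interval was -0.36 to 0.35. Wnt4, known from kidney and female reproductive tract development, measured 5.21, 5.24 and 5.06 in ErbB4-/- and 5.14, 5.63 and 4.87 in control liver. The controls spanned a wider range than the ErbB4-/- arrays, and the difference was -0.04.

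Wnt10a, known for its part in teeth, skin and hair, measured 5.22, 5.18 and 5.00 in ErbB4-/- and 5.00, 5.00 and 4.89 in control liver. The groups met at a shared value of 5.00, and the difference was 0.17 with a standard error of 0.08 (limma, adjusted p = 0.760). Wnt10b, known from fat and bone, measured 4.46, 4.51 and 4.44 in ErbB4-/- and 4.41, 4.41 and 4.21 in control liver. It did not overlap between the groups, the gap between them was narrow, and the difference was 0.12 with a standard error of 0.07 (limma, adjusted p = 0.760), at a level below the median of the table. Wnt5a, a ligand of the beta-catenin-independent branch, measured 4.84, 4.53 and 4.64 in ErbB4-/- and 4.53, 4.45 and 4.53 in control liver, a difference of 0.17. It too lay below the median.

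Wnt5b, its relative, measured 5.84, 5.85 and 6.06 in ErbB4-/- and 6.17, 5.85 and 5.70 in control liver. Both groups shared nearly the same mean, 5.92 and 5.91. Wnt11, which acts in cell movement during development, measured 5.72, 5.78 and 5.79 in ErbB4-/- and 5.72, 5.59 and 5.72 in control liver, a difference of 0.09. The ErbB4-/- values lay at or above the controls, with a shared value of 5.72. Wnt6 measured 5.31, 5.56 and 5.33 in ErbB4-/- and 5.43, 5.43 and 5.37 in control liver, and Wnt9a 5.56, 5.63 and 5.26 against 5.62, 5.56 and 5.56. For both genes the ErbB4-/- arrays spread more widely than the controls. Wnt7a measured 4.86, 4.85 and 4.71 in ErbB4-/- and 5.07, 4.86 and 4.86 in control liver, and Wnt7b 4.85, 5.16 and 4.91 against 4.98, 5.14 and 4.91. The Wnt7a difference was -0.12 and that of Wnt7b -0.04. The 9 Wnts that were not above the median, Wnt5a and Wnt10b among them, had values of 2.99 to 5.11.

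Several Wnt genes lie beside each other on the chromosome. In the RefSeq annotation of GRCm38.p6 no gene separates Wnt1 from Wnt10b on chromosome 15, or Wnt3 from Wnt9b and Wnt3a from Wnt9a on chromosome 11. The differences within these pairs were -0.01 and 0.12 for Wnt1 and Wnt10b, and 0.17 and -0.10 for Wnt3a and Wnt9a. Wnt3 differed by 0.05 and Wnt9b by less than the last digit given. The standard errors of these 6 differences were 0.07 to 0.14, and none passed.

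Of the secreted inhibitors, Sfrp1, which captures Wnts outside the cell, measured 5.60, 5.08 and 5.10 in ErbB4-/- and 5.11, 4.56 and 5.26 in control liver. The highest value was that of ErbB4-/- replicate 1 and the lowest that of control replicate 2, and the difference of 0.29 had an interval of -0.29 to 0.86 (limma, adjusted p = 0.770). It was 0.08 without control replicate 2 and 0.12 without ErbB4-/- replicate 1. Sfrp2, Sfrp4 and Sfrp5 were not above the median and differed by -0.01 to 0.10. A second probe set of Sfrp2 differed by -0.16. Dkk3, a divergent DKK that does not act on LRP5 and LRP6 as the others do, measured 6.07, 5.82 and 6.29 in ErbB4-/- and 6.38, 6.14 and 6.14 in control liver, a difference of -0.16. It was -0.04 without ErbB4-/- replicate 2 and -0.27 without ErbB4-/- replicate 3. Dkk4, an inhibitor that is itself a Wnt target, measured 5.26, 5.49 and 5.12 in ErbB4-/- liver and 5.32 on all 3 control arrays. The ErbB4-/- values fell on both sides of that single control value. Dkk1 and Dkk2, the best known blockers of LRP5 and LRP6, differed by 0.04 and -0.09 at levels below the median.

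Other genes of the pathway were described by lists chosen for this tissue. Among 25 further extracellular and membrane regulators none passed, the median difference was 0.01, and 1, or 4.0% against 5.72% of all genes, had an unadjusted p below 0.05. That gene was Wls, which carries Wnts to the cell surface for secretion, with 5.92, 5.75 and 5.51 in ErbB4-/- and 6.19, 6.06 and 6.09 in control liver. Every ErbB4-/- value lay below every control value, and the difference was -0.39 with a standard error of 0.11 (limma, adjusted p = 0.760). Porcn, the enzyme that attaches the lipid to Wnts, measured 6.01, 5.95 and 6.02 in ErbB4-/- liver and 6.02 on all control arrays. Frzb, a relative of the SFRPs, differed by -0.02. The Wnt inhibitor gene Wif1 differed by 0.21 with a standard error of 0.11, and the sclerostin gene Sost by 0.13 with 0.06.

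Rnf43 and Znrf3, the ligases that remove Frizzleds, measured 8.10, 7.76 and 8.28 and 7.41, 7.36 and 7.53 in ErbB4-/- liver, against 8.01, 7.77 and 7.52 and 7.55, 7.36 and 7.36 in control liver. The groups overlapped in both. Notum, which removes the lipid from Wnts, measured 7.17, 7.15 and 7.45 in ErbB4-/- and 7.40, 7.17 and 7.17 in control liver.

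Inside the cell, none of 18 measured transducers passed, and the median difference was -0.01. The beta-catenin gene Ctnnb1 measured 9.34, 9.15 and 9.33 in ErbB4-/- and 9.20, 9.19 and 9.20 in control liver, a difference of 0.08 (SE 0.07.) The casein kinase genes Csnk1e and Csnk1a1 were the 2 with an unadjusted p below 0.05, or 11.1% against 5.72% of all genes. Csnk1e measured 5.92, 5.79 and 6.13 in ErbB4-/- and 6.22, 6.28 and 6.35 in control liver, a difference of -0.34, and Csnk1a1 8.89, 8.90 and 8.97 against 9.15, 9.04 and 9.03, a difference of -0.16 (limma, adjusted p = 0.760 for both). Neither overlapped between the groups, which 8.33% of all genes did not. Dvl2 and Dvl3, which relay the signal from Frizzleds, differed by -0.14 and 0.10.

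Known targets of the pathway were compared next. They were measured in bulk liver, so their levels are not a readout of Wnt signalling in hepatocytes alone. Of 13 feedback targets none passed, none had an unadjusted p below 0.05, and the median difference was 0.01. Axin2, the most widely used of them, measured 6.28, 6.21 and 6.21 in ErbB4-/- and 6.21, 6.11 and 6.00 in control liver. The groups met at a shared value of 6.21, and the difference was 0.13 with a standard error of 0.07 (limma, adjusted p = 0.760). Myc differed by -0.49 with a standard error of 0.40, Cd44 by -0.30 with 0.16 and Rnf43 by 0.28 with 0.18.

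Of 16 genes of hepatocytes around the central vein, none passed, and the median difference was 0.01. Glul, the glutamine synthetase gene that marks the innermost layer, measured 12.04, 12.02 and 12.01 in ErbB4-/- and 12.01, 12.03 and 12.06 in control liver, a difference of -0.01 with an SE of 0.04. Cyp2e1, which metabolises nitrosamines among other substrates, measured 13.85 on all 3 ErbB4-/- arrays and 13.86, 13.79 and 13.89 on the control arrays. Both genes were within a narrow band on all 6 arrays. Their means of 12.03 and 13.85 lay in the upper part of the range of the table, 1.74 to 14.37. Whether probe sets of such high signal still follow a change in RNA was not tested. Ahr, the aryl hydrocarbon receptor, was the 1 gene of the list with an unadjusted p below 0.05 (6.25%, against 5.72% of all genes), at 8.50, 8.75 and 8.09 in ErbB4-/- and 9.35, 9.09 and 9.07 in control liver, a difference of -0.72 (SE 0.18; limma, adjusted p = 0.760). Its groups did not overlap. Rhbg, an ammonium transporter, measured 7.64, 7.46 and 7.43 in ErbB4-/- and 6.72, 7.42 and 7.25 in control liver, a difference of 0.38. It did not overlap either, by a margin of 7.43 against 7.42.

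Of 12 genes of hepatocytes around the portal vein, none passed, and the median difference was -0.03. Cyp2f2 measured 13.04, 12.82 and 12.83 in ErbB4-/- and 12.22, 12.74 and 12.83 in control liver, a difference of 0.30 (SE 0.18), in which control replicate 1 was the lowest array. Ctsc, a protease gene that leukocytes also express, differed by -0.46 with a standard error of 0.18 and was the 1 gene of the list with an unadjusted p below 0.05, or 8.33% against 5.72% of all genes.

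**Figure D4:**
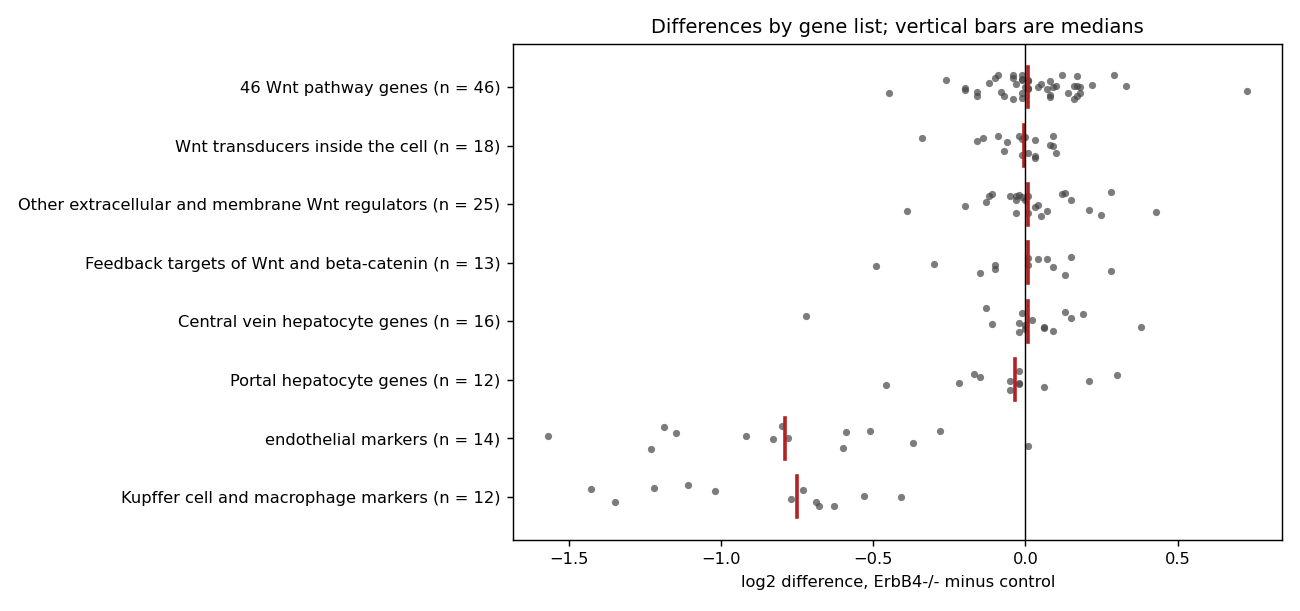
Each point is the log2 difference, ErbB4-/- minus control (x axis), of 1 gene, by list (y axis), and red bars are the medians. The 46 Wnt pathway genes and the lists of transducers, regulators, targets and hepatocyte zones have medians between -0.03 and 0.01. The medians of the endothelial and macrophage markers are -0.79 and -0.75.

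The means of endothelial and of stellate cell and fibroblast markers were lowest on ErbB4-/- replicates 3 and 2, as Rspo3 and Wls were. So was the mean of Kupffer cell and macrophage markers. Not every endothelial gene followed, as Egfl7 differed by 0.01 and Fzd4 was highest on ErbB4-/- replicate 3, at 8.19. On ErbB4-/- replicate 1, Wls and the stellate and Kupffer means lay below all controls, whereas Rspo3 and the endothelial mean did not. Over all genes 45.3% had differences below 0, and 5.72% had an unadjusted p below 0.05, with 2.94% of all genes on the lower side. The marker lists were chosen with earlier results of these data known, so their shares describe the lists and test nothing. Markers of a cell type were read on the same 6 arrays and are not independent of each other. The mean of 14 endothelial markers was 8.13, 7.56 and 6.95 in ErbB4-/- replicates 1 to 3 and 8.08, 8.37 and 8.51 in control replicates 1 to 3. Only ErbB4-/- replicate 1 lay within the control range, as it did for Rspo3. Of these markers 13, or 92.9%, had differences below 0, 6, or 42.9%, had an unadjusted p below 0.05, none passed, and all 14 lay above the median of the table. The sinusoidal receptor gene Lyve1 differed by -1.57 with a standard error of 0.36 and Stab2 by -0.59 with 0.23.

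The mean of 12 markers of stellate cells and fibroblasts was 7.54, 7.30 and 7.00 in ErbB4-/- and 7.60, 7.58 and 7.60 in control liver. Of them 11 had differences below 0, 3 of the 12, or 25.0%, had an unadjusted p below 0.05, none passed, and all lay above the median. That of 12 Kupffer cell and macrophage markers was 8.12, 7.77 and 7.16 in ErbB4-/- and 8.44, 8.52 and 8.73 in control liver. All 12 were below 0, 10 of them, or 83.3%, with an unadjusted p below 0.05, and none passed. Markers of neutrophils had a mean of 4.57, 4.58 and 4.89 in ErbB4-/- and 7.14, 5.20 and 6.74 in control liver, with all 10 below 0, 9 at an unadjusted p below 0.05 and none passing. Cholangiocyte markers, 7 in number of which 2 lay above the median, had a mean of 4.65, 4.69 and 4.55 in ErbB4-/- and 4.59, 4.52 and 4.63 in control liver. Of the 9 hepatocyte markers, 8 had differences below 0 and 1 above, with a median of -0.03. Hnf4a with -0.30 and Cyp3a11 with -0.36, or 22.2%, had an unadjusted p below 0.05, and none passed. In bulk liver, fewer cells of a type and less RNA per cell cannot be told apart, and the part of these cells in the Rspo3 and Wls values was not tested. Wnt2 and Wnt9b, which the same endothelium is known to make, differed by -0.03 and by less than the last digit given. Both were lowest on ErbB4-/- replicate 3, at 4.92 and 4.80. Their means of 5.12 and 5.02 lay little above the median of the table (4.83), and dim probe sets may hold background only. The part of these cells in the Wnt2 and Wnt9b values was not tested.

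**Figure D5:**
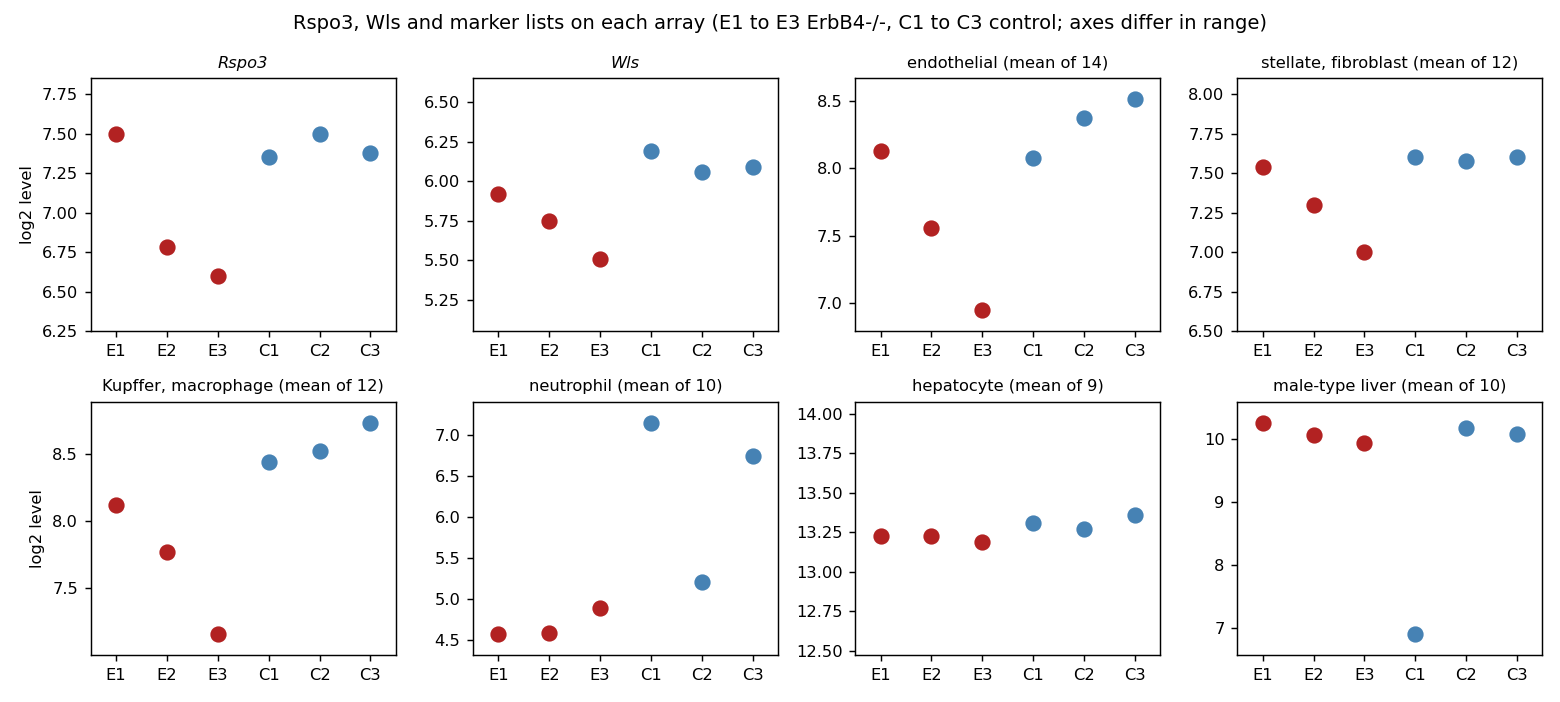
Log2 level (y axis) of Rspo3, of Wls and of the mean over 6 marker lists on each array (x axis), with E1 to E3 for ErbB4-/- replicates in red and C1 to C3 for control replicates in blue; the axes differ in range. Rspo3, Wls and the endothelial, stellate and Kupffer lists are lowest in E3 and next lowest in E2, and the male-type list is low in C1 at 6.90.

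With both arrays that stood apart left out, no member passed, 13 members did not overlap between 2 and 2 arrays against 27.5% of all genes, and 3 had an unadjusted p below 0.05 against 5.98% of all genes. These 3 were Lgr4 with -0.24, Rspo4 with 0.28 and Wnt10a with 0.25.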

How the data were processed

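The deposited table holds log2 levels of 41345 probe sets on 6 arrays. Per the labels' protocols, RNA was extracted with Trizol and labelled with Affymetrix whole-transcript kits. The sources used here do not give the background correction and normalization behind the deposited values, and the log2 scale was read from their range of 1.74 to 14.37. Of the probe sets 23521 have 1 gene symbol in the platform annotation, 1814 several and 16010 none. Per gene the probe set with the highest mean was used, which gave 22180 genes. All 46 members matched the RefSeq genes of GRCm38.p6 by gene identifier, and 3 had a second probe set.

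Differences were fitted with limma 3.58.1 in R 4.3.3 with genotype as the only term, two-sided, with Benjamini-Hochberg adjustment over all genes and a threshold of 0.05. The fitting code was also run on simulated data, and no result of that run is used here. With 3 arrays per group the smallest two-sided p of an exact permutation test is 0.10. The members and lists were chosen with earlier results of these data known. Values on every array are given for members above the median and for the 8 with the smallest unadjusted p, and otherwise by range. Of other lists, some of the genes with the smallest unadjusted p and a fixed set of genes are named. Porcn, Frzb, Myc and Stab2 are named outside this rule. Of 172 listed genes 160 were measured. The design text calls the 3 mice of a group biological replicates. Replicate numbers did not pair the arrays. Figures were drawn with matplotlib 3.10.9.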

Additional observations from a re-analysis of the deposited data

How the results depend on the processing

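Precision is limited by 3 arrays per group, and dim probe sets may hold background only. No member passed under any of the 17 alternatives that refit or rethreshold the test. Between 19 and 28 members lay above the median under every alternative, with 19 of 46 where the median over the genes tested was used. That median was 5.27 and by definition divides the genes tested evenly, and the median level of the members was 5.03. Fzd8 stayed between 0.59 and 0.92 and missed an unadjusted p below 0.05 only without both arrays that stood apart. The 1 gene that passed, Clca3a1, which is no member and is named after its value was seen, was lost (0) with every row of the table, the replicate block, the week covariate, any 1 array or both arrays left out.

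Members at an unadjusted p below 0.05 numbered 3 with array weights (6.33% of all genes), 5 with the week covariate (Fzd6, Fzd8, Lgr4, Wnt1 and Wnt10a, against 4.24% of all genes), 3 without both arrays (5.98%) and 1 to 3 with 1 array left out (4.06% to 7.00%). Members without overlap numbered 7 after quantile normalization (14.8%), 5 after centring each array on its median (12.3% of all genes), 1 among genes at or above the median (10.4%), 13 without both arrays (27.5%) and 3 to 9 with 1 array left out (14.9% to 18.5%). The median difference was -0.035 over members at or above the median, 0.143 with the week covariate, 0.046 without both arrays and -0.004 to 0.054 with 1 array left out.

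Single members were followed through the alternatives for 29 of the 46, those given by array. Among these, signs turned for Wnt9b with quantile normalization (0.00), and with array weights for Dkk4 (0.01), Wnt2 (0.00), Wnt6 (0.01) and Wnt9b (0.07). With the week covariate, whose weeks may not be times of dissection, they turned for Dkk4 (0.07), Fzd4 (-0.15), Lgr5 (0.15), Lgr6 (0.14), Lrp6 (-0.11), Rspo3 (0.20), Wnt2 (0.11), Wnt4 (0.27), Wnt6 (0.02), Wnt7a (0.15), Wnt9a (0.17) and Wnt9b (0.30). Without both arrays they turned for Dkk4 (0.05), Lgr5 (0.04), Lgr6 (0.04), Lrp6 (-0.05), Wnt2 (0.03), Wnt6 (0.03), Wnt9a (0.03) and Wnt9b (0.20). With 1 array left out, differences ran from -0.14 to 0.05 for Dkk4, -0.02 to 0.20 for Lrp6, -0.09 to 0.06 for Wnt2, -0.22 to 0.16 for Wnt4, -0.09 to 0.14 for Wnt5b, -0.09 to 0.03 for Wnt6, -0.13 to 0.03 for Wnt7b, -0.17 to 0.01 for Wnt9a and -0.11 to 0.11 for Wnt9b. The cause was not tested.

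The replicate numbers gave correlations of -0.10, 0.03 and -0.05 between same-numbered arrays, and with the replicate block 0 members passed and 1 had an unadjusted p below 0.05.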
